A study of Homo sapiens with 6 samples.

Results

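The 8 SMAD genes (SMAD1, SMAD2, SMAD3, SMAD4, SMAD5, SMAD6, SMAD7 and SMAD9) and the 2 SMURF ubiquitin ligase genes (SMURF1 and SMURF2) were followed in HCCLM3 cells, an established human hepatocellular carcinoma line. They were taken by gene symbol from the deposited counts and are 10 of 34234 genes. All 10 passed the filter on low counts, which 17935 genes passed. Polyadenylated RNA was sequenced from cells given, by lentivirus, either a control hairpin (shcontrol) or a hairpin that silences ATXN7L3 (shATXN7L3), with 3 libraries of each. Both groups were the same line, kept in DMEM with serum, and both carried a lentivirus. The recorded time of the medium change, in hours, was the same for every library of both groups. Nothing in the labels says how many hairpin sequences, infected cell pools or separate cultures were used. A p-value here is therefore set against the spread of these libraries alone, and that spread may be technical. The comparison asks which mRNAs differ in amount after ATXN7L3 is silenced.

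SMAD proteins carry signals from receptors of the transforming growth factor beta (TGF-beta) family to the nucleus. TGF-beta and activin receptors phosphorylate SMAD2 and SMAD3, and bone morphogenetic protein (BMP) receptors phosphorylate SMAD1, SMAD5 and SMAD9; either set joins SMAD4 and binds DNA. SMAD6 and SMAD7 are the inhibitory members, induced by the pathway itself, and they bring the ligases SMURF1 and SMURF2 to receptors and other SMADs, which are then ubiquitinated and degraded. In hepatocytes this pathway is known for growth arrest, cell death and, in tumours, epithelial-mesenchymal change.

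Library totals ran from 22376867 to 23915783 counts. In the list of hepatocyte and hepatoma markers, 9 genes were measured, and their summed level was 1894 to 2056 CPM (TMM-scaled counts per 1000000) in shcontrol, against 1673 to 1816 CPM after silencing. KRT8 supplied most of it, at 1652 ± 94.9 CPM in shcontrol (SD, n = 3), ALB was at 65.2 ± 1.69 CPM and AFP at 2.91 ± 0.222 CPM, while APOA1 (0.418 ± 0.108 CPM) and TTR (0.758 ± 0.218 CPM) were near 0. All 8 tested markers of this list were called lower in edgeR, against 12.0% of all tested genes. Among them were ALB, which fell to 24.1 ± 1.15 CPM, and HNF4A, from 43.5 ± 2.30 to 33.4 ± 0.115 CPM. Leukocyte markers summed to 90.3 to 109.6 CPM in shcontrol and 120.3 to 126 CPM in shATXN7L3, almost all of it CD68, which was called higher. LYZ, the other tested marker of that list, was called lower, from 0.922 ± 0.254 to 0.169 ± 0.0876 CPM. PTPRC was at 0.149 ± 0.0667 CPM in shcontrol. Endothelial markers summed to 57.2 to 62.1 and 42.4 to 44.4 CPM (PECAM1 and KDR; CDH5 at 0.0446 ± 0.0440 CPM in shcontrol). Fibroblast markers summed to 23.5 to 27.8 and 5.14 to 6.03 CPM (LUM; COL1A1 at 0.374 ± 0.0579 CPM in shcontrol). In a bulk library, fewer cells of a type and less RNA per cell cannot be told apart, and the part of these markers in the results below was not tested.

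ATXN7L3 (chr17:44191805-44200113, minus strand, GRCh38) is the target of the hairpin; its product belongs to the part of the SAGA coactivator that removes ubiquitin from histone H2B. Its mRNA was at 36.4, 37.5 and 37.5 CPM in the shcontrol libraries but at 20.6, 20.5 and 19.5 CPM in the shATXN7L3 libraries. The groups did not overlap. The log2 fold change was -0.88 ± 0.056 (SE; edgeR quasi-likelihood test, Benjamini-Hochberg adjusted p = 6.69e-10), which left 54.5% of the control level (95% interval 50.2% to 59.1%). The exact two-sided permutation test of the same values gave p = 0.1, the smallest that 3 against 3 libraries allow.

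SMAD7 fell, SMAD3 fell by less, and SMURF2 rose in the shATXN7L3 libraries. The other 7 genes did not pass the test. Of the 10 genes, 1 was called higher and 2 lower at an edgeR adjusted p under 0.05, against 24.2% of all tested genes called (12.2% higher and 12.0% lower) and 28.8% of the 12684 tested protein-coding genes. The shATXN7L3 and shcontrol libraries did not overlap for 4 of the 10 genes (SMAD7, SMAD3, SMAD6 and SMURF2), against 38.3% of all tested genes (19.8% higher and 18.4% lower) and 43.4% of the protein-coding ones. The share of SMAD and SMURF genes that was called is thus near the background of this comparison, in which many genes moved. Their median log2 fold change was 0.01, as was that of all tested genes, and their fold changes ran from -0.32 to 0.21, where 5 were above 0 and 5 below. Counting genes with an unadjusted edgeR p under 0.05 gives 4 of the 10. The share of all tested genes under that unadjusted threshold was not counted, so no excess can be read from this. With DESeq2 in place of edgeR, and without shcontrol replicate 1, shcontrol replicate 2, shATXN7L3 replicate 1 or shATXN7L3 replicate 3, 0 genes were called higher. Without shcontrol replicate 2 or any 1 of the shATXN7L3 libraries, and with scaling to library size alone, 1 was called lower, which was SMAD7.

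**Figure D1:**
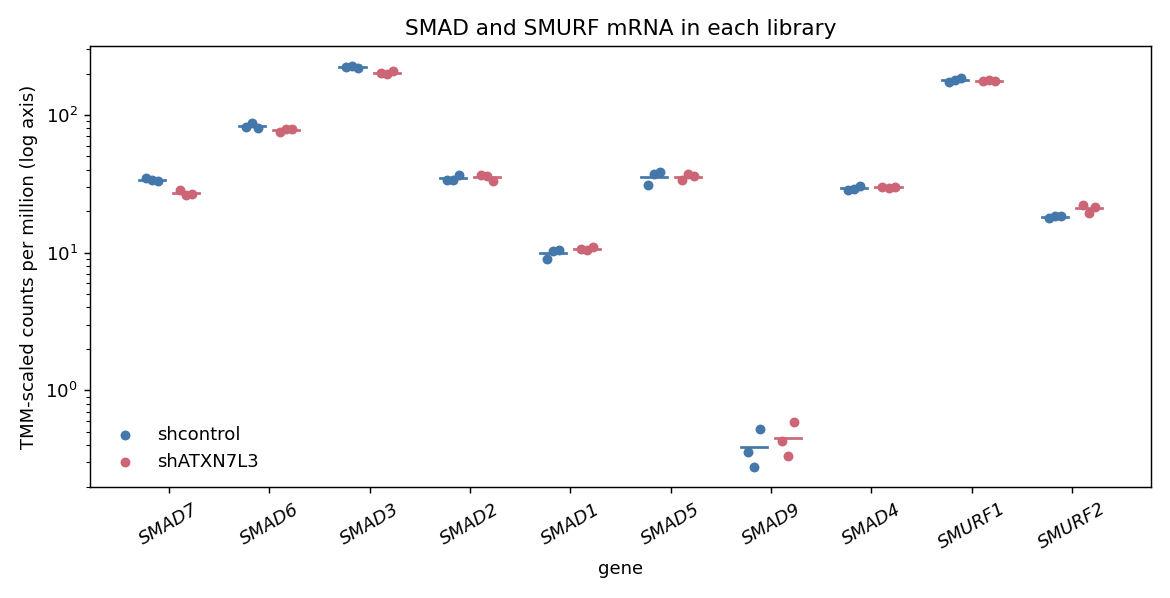
TMM-scaled CPM (log axis) of each SMAD and SMURF gene in the 3 shcontrol (blue) and 3 shATXN7L3 (red) libraries; each point is a library and each bar a group mean. The red points lie below every blue point for SMAD7, SMAD6 and SMAD3 and above every blue point for SMURF2, while SMAD9 lies below 1 CPM in all 6 libraries.

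**Figure D2:**
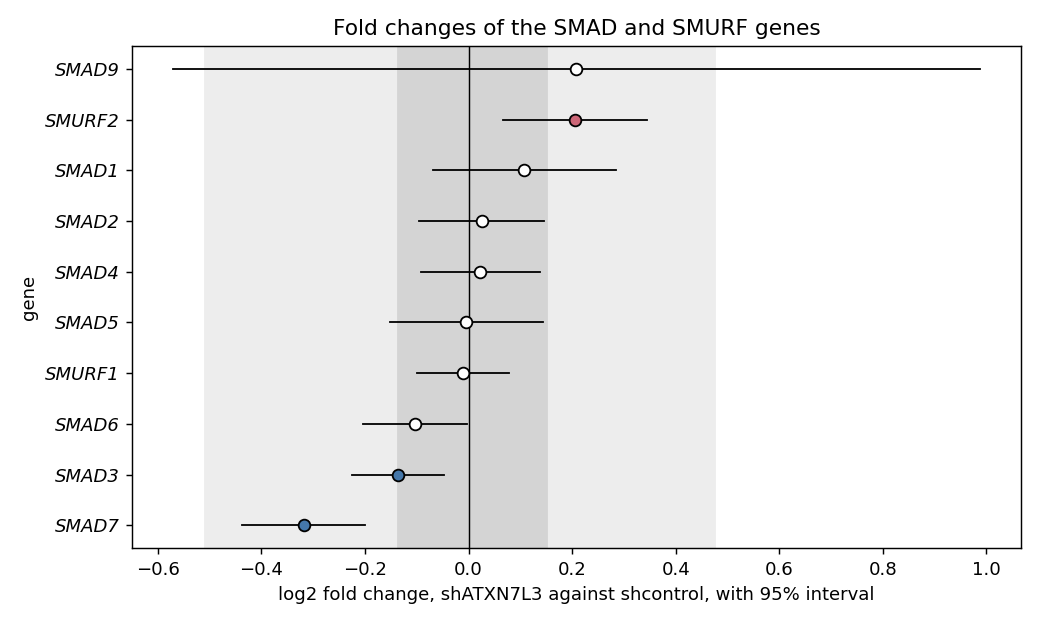
Log2 fold change (shATXN7L3 against shcontrol) of each gene with its 95% interval, over the middle 50% (dark band) and middle 90% (pale band) of all 17935 tested genes. Filled points passed the test (blue lower, red higher); all 10 estimates lie within the pale band, and that of SMAD7 (-0.32) is the farthest from 0.

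SMAD7 (chr18:48919853-48950711, minus strand) encodes the inhibitory SMAD that blocks both branches, by occupying type I receptors and by bringing SMURF ligases to them. It was at 34.8, 33.9 and 33.1 CPM in the 3 shcontrol libraries and at 28.7, 26.1 and 26.9 CPM in shATXN7L3, from 736 to 783 and 629 to 667 counts per library. The lowest shcontrol library stood above the highest shATXN7L3 library. The fall was -0.32 ± 0.057 on the log2 scale (95% interval -0.44 to -0.20; edgeR adjusted p = 0.000319), or 80.2% of the control level (73.8% to 87.1%). In size this fold change exceeded those of 79.4% of all tested genes, and it equalled the median size among called genes (0.32). All 14 alternative settings called SMAD7 lower, with estimates between -0.36 and -0.27 and adjusted p between 1.33e-05 and 0.00504.

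SMAD6 (chr15:66702228-66782848, plus strand) encodes the other inhibitory SMAD, which acts mainly on the BMP branch. Its libraries held 81.6, 87.7 and 80.8 CPM in shcontrol, and 75.0, 78.9 and 78.7 CPM after silencing. The groups did not overlap, with shATXN7L3 lower, but the gap between the nearest libraries was small. Its log2 fold change of -0.10 ± 0.048 (95% interval -0.20 to -0.00) did not pass the test (edgeR adjusted p = 0.130, unadjusted p = 0.0436). None of the 14 alternatives called SMAD6, with adjusted p between 0.0538 and 0.432.

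SMAD complexes bind GTCT and its reverse complement AGAC, and the promoters of both inhibitory SMAD genes are known targets of the pathway. The sequences below are shown because these genes feed back on the pathway and only SMAD7 of them passed the test. They come from RefSeq (GRCh38.p14), whose windows of 250 bases before to 50 bases after a transcript start matched all 10 genes (21 windows). Capitals mark GTCT or AGAC cores that stand side by side. The SMAD6 site lies at chr15:66702213-66702242 (plus strand), with the core 12 to 5 bases before the start. The SMAD7 site lies at chr18:48951074-48951103 (minus strand), with the core 127 to 120 bases before the start. The SMAD6 site spans the first base of the deposited SMAD6 model, and the SMAD7 site lies before the deposited SMAD7 model, in bases that GENCODE 29 annotates as exon.
SMAD6 site: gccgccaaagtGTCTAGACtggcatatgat
SMAD7 site: cttattttgccAGACGTCTcatgcggggtg

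The SMAD6 core is the palindrome GTCTAGAC, which 71 of 35116 RefSeq windows hold (0.202%), and the SMAD6 window is the 1 among the 21 that holds it. The SMAD7 core has the same pair of tetramers in the opposite order, AGACGTCT, and 58 windows hold it (0.165%). Single GTCT or AGAC letters are in 84.0% of windows on either strand, with a median of 2 per window, and the palindrome counts as 1 of each. The 3 SMAD7 windows hold 4, 5 and 2 of them. None of these windows covers the bases directly before the start of the deposited SMAD7 model (chr18:48950711, minus strand). The nearest upstream window stops at 48950916, so the stretch between was not searched for either core. A match is a description of the letters and not a binding site.

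A second RefSeq start of SMAD7 lies inside the gene. The 250 bases before it (chr18:48949334-48949583, minus strand) lie between annotated exons and hold TATAAA, which 11.5% of all windows hold. They are shown with GTCT and AGAC in capitals, because this is the SMAD7 window with the most of these letters. Reads counted per gene do not tell which start an mRNA came from.
SMAD7 second window: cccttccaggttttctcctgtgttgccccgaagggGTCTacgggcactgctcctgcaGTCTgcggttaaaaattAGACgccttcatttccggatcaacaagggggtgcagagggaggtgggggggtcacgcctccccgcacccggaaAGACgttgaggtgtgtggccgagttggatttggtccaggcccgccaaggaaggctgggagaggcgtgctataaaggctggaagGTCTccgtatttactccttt

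SMAD3 (chr15:67063763-67195195, plus strand) encodes the receptor-regulated SMAD that binds DNA directly in the TGF-beta and activin branch. It was the most counted of the 10 genes, at 224, 227 and 218 CPM in shcontrol libraries, and 202, 199 and 208 CPM in shATXN7L3 libraries. The groups did not overlap. SMAD3 fell by 0.14 on the log2 scale (SE 0.042; 95% interval -0.23 to -0.05; edgeR adjusted p = 0.0230), which left 90.9% of the control level (85.5% to 96.7%). This fold change was smaller in size than those of most tested genes, exceeding 48.2% of them. The call was kept under 9 of 14 alternatives. It was lost with scaling to library size alone (-0.09, adjusted p = 0.0956), without shcontrol replicate 2 (0.0847) and without shATXN7L3 replicate 1 (0.107), replicate 2 (0.111) or replicate 3 (0.0511).

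SMAD2 (chr18:47808957-47931146, minus strand), the partner of SMAD3 in that branch, measured 33.7, 33.9 and 36.5 CPM in shcontrol, and 36.8, 36.0 and 33.2 CPM in the shATXN7L3 libraries. The groups overlapped, and the lowest of the 6 libraries was a shATXN7L3 library. The estimate for SMAD2, a log2 difference of 0.03 ± 0.058, did not pass the test (edgeR adjusted p = 0.800). Its 95% interval, -0.09 to 0.15, covers 93.6% to 111% of the control level.

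**Figure D3:**
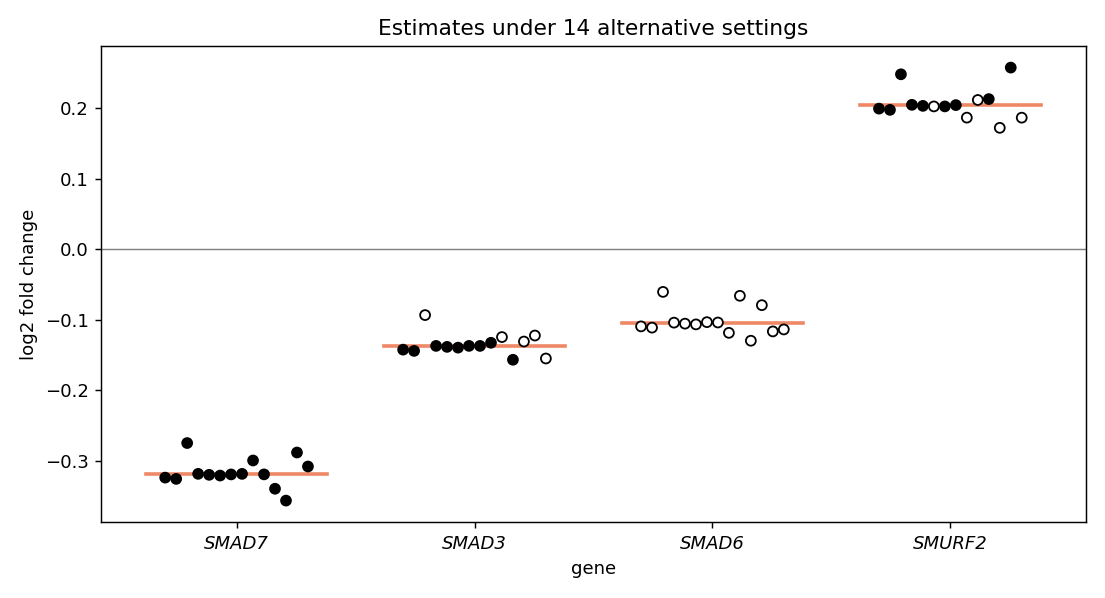
Log2 fold change of SMAD7, SMAD3, SMAD6 and SMURF2 under each of 14 alternative settings (points; filled where the adjusted p stayed under 0.05) beside the reported estimate (orange line). The SMAD7 points are all filled and lie between -0.36 and -0.27, the SMAD6 points are all open, and SMAD3 and SMURF2 have 9 filled points each.

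Among the BMP-branch SMADs no gene passed the test. SMAD5 (chr5:136132845-136188747, plus strand) measured 30.9, 37.5 and 38.4 CPM in shcontrol, and 33.5, 37.1 and 36.0 CPM in the shATXN7L3 libraries. The lowest and the highest library were both shcontrol, and the SD over shcontrol (4.10 CPM) was above that over shATXN7L3 (1.86 CPM). For SMAD5 the log2 fold change was -0.00 ± 0.070 (95% interval -0.15 to 0.14; edgeR adjusted p = 0.974).

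SMAD1 (chr4:145481194-145558079, plus strand) measured 9.02, 10.2 and 10.5 CPM in shcontrol, and 10.7, 10.4 and 10.9 CPM in the shATXN7L3 libraries. The groups overlapped by a single library, since shcontrol replicate 3 stood above shATXN7L3 replicate 2. For SMAD1 the log2 fold change was 0.11 ± 0.085 (95% interval -0.07 to 0.28; edgeR adjusted p = 0.397).

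SMAD9 (chr13:36844831-36920765, minus strand), the third SMAD of that branch, had 8, 6 and 12 counts in shcontrol and 10, 8 and 14 counts in shATXN7L3. These counts equal 0.386 ± 0.128 and 0.449 ± 0.128 CPM (SD, n = 3 each). The groups overlapped, and the 95% interval of the log2 fold change (0.21, from -0.57 to 0.99) covers 67.3% to 198% of the control level. A change of the size seen in SMAD7 was not detectable at this depth (edgeR adjusted p = 0.742).

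SMAD4 (chr18:51028394-51085045, plus strand) encodes the common partner of both branches and is a tumour suppressor. It measured 28.4, 29.2 and 30.3 CPM in shcontrol, and 29.8, 29.4 and 30.2 CPM in the shATXN7L3 libraries. All shATXN7L3 libraries lay within the range of the shcontrol libraries. For SMAD4 the log2 fold change was 0.02 ± 0.055 (95% interval -0.09 to 0.14; edgeR adjusted p = 0.814).

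SMURF2 (chr17:64542295-64662068, minus strand) encodes a ligase that ubiquitinates receptors and SMADs and binds SMAD7. It measured 17.8, 18.4 and 18.5 CPM in shcontrol, and 22.0, 19.5 and 21.6 CPM in the shATXN7L3 libraries. The groups did not overlap, with shATXN7L3 replicate 2 nearest to the shcontrol libraries. SMURF2 rose by 0.21 ± 0.066 on the log2 scale (95% interval 0.07 to 0.34; edgeR adjusted p = 0.0293), to 115% of the control level (105% to 127%). The call was kept under 9 of 14 alternatives. It was lost with DESeq2 (adjusted p = 0.144) and, in edgeR, without shcontrol replicate 1 (adjusted p = 0.0592) or replicate 2 (0.0641) and without shATXN7L3 replicate 1 (0.136) or replicate 3 (0.115). SMURF2P1 (chr17:30600796-30615980, plus strand), a transcribed pseudogene of it, was at 2.22 ± 0.408 and 2.52 ± 0.337 CPM (log2 fold change 0.18 ± 0.18; edgeR adjusted p = 0.504). Reads that match the gene and its pseudogene may have been split between them.

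SMURF1 (chr7:99027438-99144100, minus strand), the paralogous ligase, known for its action on BMP-branch SMADs, measured 174, 179 and 184 CPM in shcontrol, and 177, 180 and 176 CPM in the shATXN7L3 libraries. The shATXN7L3 libraries lay within the range of the shcontrol libraries. The fold change of SMURF1 was -0.01 ± 0.043 on the log2 scale (edgeR adjusted p = 0.889), and its 95% interval, -0.10 to 0.08, covers 93.3% to 106% of the control level.

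The bases before the RefSeq starts of SMURF2 (chr17:64662308-64662557, minus strand), SMURF1 (chr7:99144109-99144358, minus strand) and SMAD3 (its most upstream window, chr15:67065352-67065601, plus strand) are shown because 2 of these genes passed the test, in opposite directions, and 1 did not. Capitals mark GTCT and AGAC. The deposited SMAD3 model starts upstream of this window, at 67063763, so the bases directly before that start are not shown. The deposited SMURF2 model starts downstream of the RefSeq start, at 64662068. Among the lower-case letters, GGGCGG and its reverse complement CCGCCC, the box bound by factors of the SP family, recur.
SMURF2 upstream: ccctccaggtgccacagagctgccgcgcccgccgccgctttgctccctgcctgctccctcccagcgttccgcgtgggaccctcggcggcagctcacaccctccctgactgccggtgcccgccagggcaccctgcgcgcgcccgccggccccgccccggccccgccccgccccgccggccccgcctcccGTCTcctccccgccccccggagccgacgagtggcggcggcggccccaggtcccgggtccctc
SMURF1 upstream: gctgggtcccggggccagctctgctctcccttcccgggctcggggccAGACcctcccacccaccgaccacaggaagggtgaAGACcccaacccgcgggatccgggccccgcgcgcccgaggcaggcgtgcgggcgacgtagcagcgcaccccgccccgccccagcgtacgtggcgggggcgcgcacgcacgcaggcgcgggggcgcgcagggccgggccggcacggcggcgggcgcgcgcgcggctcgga
SMAD3 upstream: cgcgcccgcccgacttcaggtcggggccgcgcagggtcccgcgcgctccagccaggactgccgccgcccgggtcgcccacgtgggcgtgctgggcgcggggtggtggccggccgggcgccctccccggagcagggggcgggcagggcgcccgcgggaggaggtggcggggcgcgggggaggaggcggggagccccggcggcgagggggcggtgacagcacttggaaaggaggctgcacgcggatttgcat

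With the 50 bases after the start included, GGGCGG or CCGCCC occurs 5 times in the SMURF2 window, 3 times in that of SMURF1 and 5 times in the first of 5 SMAD3 windows, and 45.0% of all windows hold it. The other 4 SMAD3 windows, at starts further downstream, hold 0 of these boxes. The box is also absent from the letters of all 3 SMAD7 windows, none of which covers the bases directly before the deposited SMAD7 start. The GC content is 79.3% for SMURF2, 81.7% for SMURF1 and 80.3% for the first SMAD3 window. It is 52.7%, 47.0%, 49.3% and 53.3% for the other SMAD3 windows and 48.3%, 57.0% and 49.3% for the SMAD7 windows, with a median of 58.7% over all windows.

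Levels of different genes were compared per length, as CPM per kilobase of exonic length, which is a level and not a difference. In shcontrol SMURF1 was highest (28.6 ± 0.817, SD, n = 3) and SMAD3 next (24.5 ± 0.490), followed by SMAD6 (9.74 ± 0.440) and SMAD7 (9.19 ± 0.226). SMAD5 (4.06 ± 0.467), SMURF2 (2.62 ± 0.0588), SMAD4 (2.24 ± 0.0718) and SMAD1 (1.63 ± 0.127) formed the middle, and SMAD2 (0.954 ± 0.0431) and SMAD9 (0.0675 ± 0.0224) the end. No neighbours in this order overlapped in their shcontrol libraries, although SMAD6 and SMAD7 nearly met, at lowest 9.44 for SMAD6 and highest 9.43 for SMAD7. The order depends on the gene models: the deposited SMAD2 model is 36366 bases long, the next longest, SMAD4, 13123 bases, and SMAD7 3692 bases. With the length of the principal GENCODE transcript, SMAD3 (35.7) stood above SMURF1 (32.1), SMAD6 at 21.7 was well above SMAD7 at 7.66, SMURF2 (6.25) passed SMAD5 (5.08), and SMAD1 (4.75) passed SMAD4 (3.34). SMAD2 (1.01) and SMAD9 (0.0709) kept the last ranks. The principal SMAD2 transcript is itself 34526 bases long, so this alternative could hardly move SMAD2. How evenly reads cover the long SMAD2 model was not tested.

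**Figure D4:**
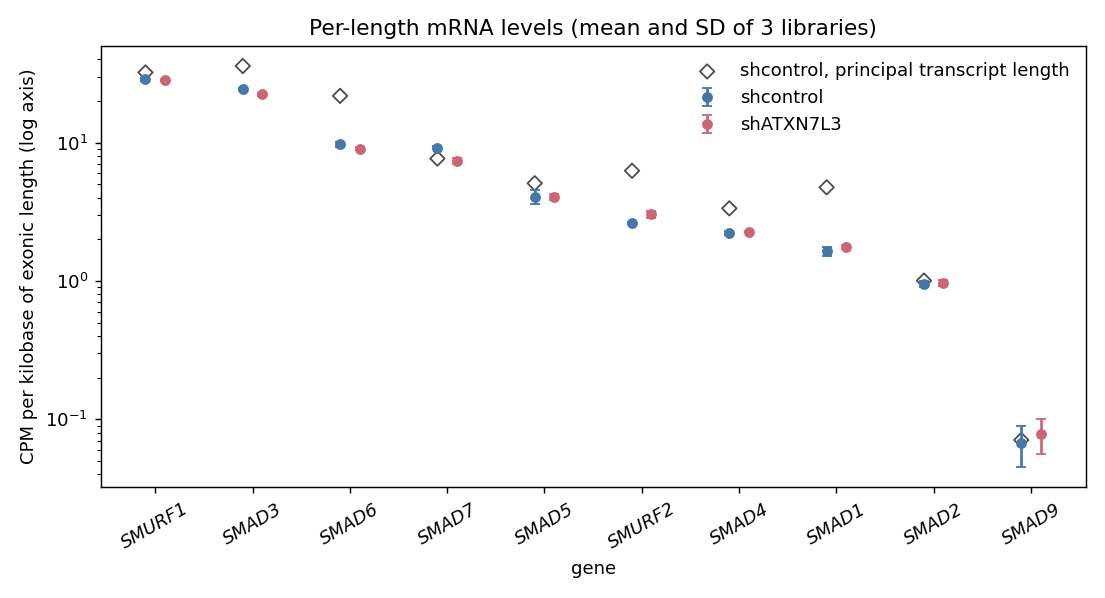
CPM per kilobase (log axis) of each gene, as mean and SD of 3 libraries, in shcontrol (blue) and shATXN7L3 (red), ordered by the shcontrol level; open diamonds are shcontrol means with the principal transcript length. SMURF1 and SMAD3 are highest (28.6 and 24.5 in shcontrol) and SMAD9 is lowest (0.0675), and the diamonds move SMAD6, SMURF2 and SMAD1 upward.

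Summed by role, SMAD2 and SMAD3 were at 25.6, 25.8 and 25.0 CPM per kilobase in shcontrol and 23.1, 22.8 and 23.8 in shATXN7L3. They made up 48.6% of all SMAD signal in both groups, nearly all of it SMAD3. All these shares rest on the deposited lengths. Before division by length, SMAD2 was at 34.7 CPM and SMAD3 at 223 CPM in shcontrol. The inhibitory pair SMAD6 and SMAD7 was at 19.0, 19.4 and 18.4 in shcontrol and 16.5, 16.3 and 16.5 in shATXN7L3, with shares of 36.1% ± 0.585 and 34.3% ± 0.405 (SD, n = 3 each). The BMP-branch SMADs held 11.0% ± 1.09 and 12.3% ± 0.392, and SMAD4 4.27% ± 0.161 and 4.75% ± 0.0225. The summed SMURF level was 31.2 ± 0.872 in shcontrol and 31.4 ± 0.154 in shATXN7L3, with SMURF1 at 28.6 and 28.3 of it.

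Ratios between genes within a library do not depend on how libraries are scaled, and 5 were compared. For each, 3 against 3 libraries allow an exact two-sided permutation p of 0.1 at the smallest, so none could pass 0.05. SMAD7 per SMAD4 was at log2 2.12, 2.04 and 1.96 in shcontrol and 1.77, 1.66 and 1.66 in shATXN7L3, without overlap (difference -0.34; exact permutation p = 0.1, adjusted p = 0.167 over the 5 ratios). SMAD7 per SMAD6 was at -0.02, -0.16 and -0.07 in shcontrol and -0.17, -0.38 and -0.34 in shATXN7L3, again without overlap (difference -0.22; exact permutation p = 0.1, adjusted p = 0.167). Thus SMAD7 was lower relative to both its inhibitory partner and SMAD4 in every shATXN7L3 library. SMURF2 per SMURF1 was at 9.19% ± 0.0973 in shcontrol and 10.7% ± 0.781 in shATXN7L3 (log2 difference 0.21; exact permutation p = 0.1, adjusted p = 0.167), and the groups did not overlap. SMAD3 per SMAD2 overlapped between groups (difference -0.16; exact permutation p = 0.2, adjusted p = 0.2). The TGF-beta-branch sum per BMP-branch sum overlapped as well (difference -0.17; exact permutation p = 0.2, adjusted p = 0.2). That difference was -0.07 without shcontrol replicate 1 and -0.24 without shcontrol replicate 3.

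Other genes of the pathway were grouped by role into 9 lists of 86 genes, of which 75 were tested. Of these, 10 rose, 24 fell and 41 did not pass the test (45.3% called, median log2 fold change -0.06). Over all tested genes 24.2% were called, with a median of 0.01, and 28.8% of the protein-coding ones were called. The lists were chosen with earlier results of these data known, so the higher share is a description and not a test. Among 12 tested ligand genes 1 rose and 5 fell (median -0.16). The activin subunit gene INHBB fell by 1.03 on the log2 scale, from 84.4 ± 2.998 to 41.4 ± 0.771 CPM (edgeR adjusted p = 8.38e-12), and BMP4, BMP6 and TGFB2 fell by 0.72, 0.53 and 0.51. The 1 ligand gene that rose was INHBA, another activin subunit gene, by 1.22 from a low level, 0.480 ± 0.183 to 1.12 ± 0.112 CPM (edgeR adjusted p = 0.00396). The deposited TGFB2-OT1 shares 26.6% of the exon bases of TGFB2 on the same strand, so their reads cannot be told apart. Among 12 tested receptor genes 1 rose and 5 fell (median -0.19), and the type II receptor gene TGFBR2, which starts the TGF-beta branch, fell by 0.38, from 131 ± 7.77 to 101 ± 3.54 CPM (edgeR adjusted p = 1.21e-05). TGFBR3, the coreceptor betaglycan, fell by 0.26, BMPR1B by 0.25 and ACVR1C by 0.73 from 1.37 ± 0.0868 CPM. The receptor calls depend on single libraries: without shcontrol replicate 2, 2 receptor genes were lower, and 3 were lower without shcontrol replicate 1, shATXN7L3 replicate 1 or shATXN7L3 replicate 3 and with DESeq2. In edgeR 0 were higher without replicate 1 or replicate 2 of either group, as with DESeq2. BMPR1B lost its call without shcontrol replicate 2 (adjusted p = 0.0654), and ACVR1C with DESeq2 (0.179) and without shcontrol replicate 1 (0.0606) or 2 (0.0745) and shATXN7L3 replicate 1 (0.0876) or 3 (0.0943). Without shcontrol replicate 1, 2 ligand genes were higher.

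Among 9 tested adaptors and receptor-level inhibitors, 2 rose and 3 fell (55.6% called, against 24.2% of all tested genes and 28.8% of the protein-coding ones). The pseudoreceptor gene BAMBI (-0.36), the inner nuclear membrane gene LEMD3 (-0.36), whose product binds receptor-regulated SMADs, and the SMAD anchor gene ZFYVE9 (-0.37) fell. PMEPA1, which sequesters SMAD2 and SMAD3, rose by 1.43 from a low level, from 0.716 ± 0.0345 to 1.93 ± 0.525 CPM (edgeR adjusted p = 0.000265). Without shATXN7L3 replicate 3, 1 gene of this list was higher, and 4 were with library size alone. The 7 other NEDD4-family ligases, relatives of the SMURFs, had a median of 0.02: NEDD4 rose by 0.35, WWP1 fell by 0.25 and 5 did not pass. Without shcontrol replicate 3, 2 were higher and 2 lower. Of 9 other enzymes that add ubiquitin to SMADs or remove it, USP9X, which removes it from SMAD4, was the 1 that fell (-0.21), 0 rose in edgeR, 2 fell without shcontrol replicate 1 and 1 rose with library size alone. SMURF2 and NEDD4 were the 2 genes that rose among the 18 tested SMURF, NEDD4-family and other SMAD ubiquitin genes. That share is near the 12.2% of all tested genes called higher.

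Of 7 nuclear partners 1 rose and 3 fell (57.1% called, against 24.2% of all tested genes and 28.8% of the protein-coding ones). The corepressor genes SKI (-0.20) and TGIF1 (-0.17) and the coactivator gene CREBBP (-0.16) fell, and TGIF2 rose by 0.35. Each of these 3 falls was called in 9 of 14 alternatives (edgeR adjusted p up to 0.104 for CREBBP and 0.119 for TGIF1; up to 0.114 for SKI, with DESeq2), and 0 were called without shATXN7L3 replicate 1, without shATXN7L3 replicate 2 or with library size alone; without shcontrol replicate 3 and with DESeq2, 1 was. TGIF2 shares 308 exon bases, on the same strand, with the readthrough gene TGIF2-C20orf24, which was at 83.0 and 95.3 CPM and was called higher too, so their reads there cannot be told apart. Of 8 phosphatase and transport genes CTDSP1, which dephosphorylates the SMAD linker, rose by 0.27, its relative CTDSPL fell by 0.29 and 6 did not pass. Without shcontrol replicate 1, 2 fell. None of the shuttling genes of that list (IPO7, IPO8, XPO4 and RANBP3) passed.

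Of 8 known targets of the TGF-beta branch, 3 rose and 4 fell (87.5% called, median -0.14), against 24.2% of all tested genes called and 28.8% of the protein-coding ones. CTGF fell by 1.05 on the log2 scale, from 23.4 ± 3.31 to 11.3 ± 0.164 CPM (edgeR adjusted p = 3.86e-08), and the cell cycle inhibitor gene CDKN2B by 0.34. CTGF overlaps an antisense gene on 8.34% of its exon bases, and that gene was lower too. PMEPA1, counted above as an inhibitor, is also a target and rose. Without shcontrol replicate 2 or shATXN7L3 replicate 2, and with DESeq2, 1 target was higher. Of 6 tested targets of the BMP branch 1 rose and 2 fell: ID3 rose by 0.47, from 40.5 ± 2.73 to 56.3 ± 1.84 CPM (edgeR adjusted p = 2.77e-06), and BAMBI, counted above, and ATOH8 (-0.50) fell. ATOH8 lost its call without shcontrol replicate 3 (adjusted p = 0.0908) and without shATXN7L3 replicate 1 (0.0789). Without shcontrol replicate 1, 2 targets were higher. SMAD7 and SMAD6 are targets of these branches too, and the targets moved in both directions.

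**Figure D5:**
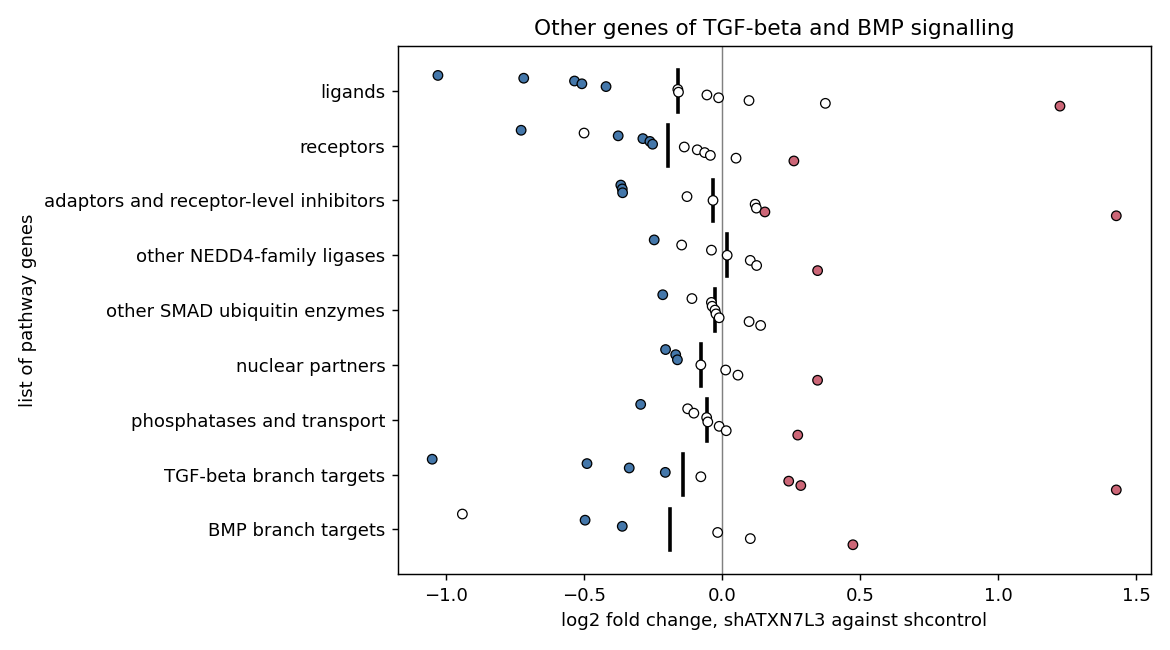
Log2 fold change (shATXN7L3 against shcontrol) of each tested gene in 9 lists of the pathway; filled points passed the test (blue lower, red higher), open points did not, and black bars are list medians. In ligands and receptors 5 filled points each lie below 0 and 1 above, and the list medians lie between -0.19 and 0.02.

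On chromosome 18 the SMAD2 and SMAD7 genes are 989 kb apart and SMAD7 and SMAD4 are 2078 kb apart, and on chromosome 15 SMAD6 and SMAD3 are 281 kb apart. Within 500 kb of SMAD7 lie 2 tested genes, and neither was called: CTIF was at 4.79 ± 0.496 and 5.75 ± 0.636 CPM (log2 fold change 0.26 ± 0.12; edgeR adjusted p = 0.134) and DYM at 12.7 ± 0.418 and 12.0 ± 0.456 CPM (-0.08 ± 0.075; edgeR adjusted p = 0.491). Within 1000 kb, 4 genes were called higher and 0 lower. The tested genes in that wider window were not counted, so no share can be set against the 24.2% over all genes. Of the tested neighbours within 500 kb, 0 of 9 were called for SMAD3, 0 of 4 for SMAD4, 1 of 8 for SMAD1 (higher), 1 of 4 for SMAD9 (higher) and 1 of 2 for SMAD5 (lower), and SMAD2 had 0 tested neighbours. For SMAD6 2 of 16 were called higher and 1 lower, the latter being SMAD3. For SMURF1 4 of 19 were called higher and 1 lower (26.3% called), and for SMURF2 1 of 25 was called higher and 3 lower (16.0%), against 24.2% of all tested genes.

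SMAD7, SMAD6, SMAD2 and SMAD9 share no exon bases with another deposited gene. SMAD4 shares 967 bases (7.37% of its model) with RP11-729L2.2 on the same strand, a gene with 9.76 CPM in shcontrol and, after silencing, 9.71 CPM. SMURF1 shares 588 bases (9.37%) with AC004893.11 on the opposite strand, at 40.3 and 40.0 CPM, and SMURF2 shares 167 bases (2.40%) with CEP95 on the opposite strand, at 49.7 and 45.8 CPM, neither of which was called. SMAD3, SMAD1 and SMAD5 share 2.00%, 6.21% and 6.95% with opposite-strand genes that were not called or not tested. Whether the counting used strand is not stated in the sources used here, so reads from these stretches cannot be assigned to a strand. The antisense gene SMAD1-AS1 was at 3.21 ± 0.418 and 3.26 ± 0.238 CPM (edgeR adjusted p = 0.940), and SMAD5-AS1, SMAD1-AS2 and SMAD9-IT1 had 0 to 2 counts per library.

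The genes whose profile over the 6 libraries was most like that of SMAD7 were AJUBA, ZNF26 and CEPT1, among 7779 genes with an average log2 CPM of at least 4. Likeness was the root mean square difference of centred log2 CPM, at 0.0131, 0.0229 and 0.0291, and their log2 fold changes were -0.34, -0.32 and -0.33. For SMURF2 they were CDCA7 (0.0148), NBPF15 (0.0241) and PLK4 (0.0248), with log2 fold changes of 0.22, 0.21 and 0.21. In the SMURF2 group, as in SMURF2 itself, shATXN7L3 replicate 2 was the lowest of the 3 shATXN7L3 libraries, which follows from how these genes were picked. With 6 libraries in 2 groups, any gene with a like group difference and a like spread scores as near.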

How the data were processed

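The deposited table holds raw counts of reads for each gene in 6 libraries. Per the submitters' processing notes, reads were handled with Trimmomatic 0.36, STAR 2.5.3a, featureCounts of Subread 1.5.1 and edgeR 3.12.1 on GRCh38. Not given in the sources used here are the annotation, the strand option and how multi-mapping reads were counted. Counts of a gene overlapping another on the same strand may be shared. Trizol extraction and poly-A selection are stated per the labels' protocols. Groups came from the treatment label, replicate numbers from the titles; no batch or date is labelled.

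Genes were kept with filterByExpr (minimum count 10, total 15), scaled by TMM (factors 0.972 to 1.02) and compared in edgeR 4.0.16 (R 4.3.3, quasi-likelihood test, group only), with p-values adjusted by Benjamini-Hochberg over the 17935 genes tested; calls are at 0.05. The biological coefficient of variation was 4.37%. SE is the size of the fold change divided by the square root of F, an approximation. Intervals cover 95%. Ratios had 0.5 counts added. Per-length levels used the exonic lengths in the deposited file, coordinates too; principal transcripts and gene types came from GENCODE 29. Pairs of libraries gave a chi-square per gene of 3.60 to 6.52 within shcontrol and 1.59 to 2.18 within shATXN7L3, where sampling noise gives 1, so each was counted as a separate sample. The procedure was tested on simulated data.

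The members and lists were chosen with earlier results of these data known. Named genes are the 10 members, ATXN7L3, up to 4 called genes of smallest p per list, and the 3 profiles nearest to SMAD7 and to SMURF2. Other listed genes named here (IPO7, IPO8, XPO4, RANBP3, INHBA, CTIF and DYM) were added with their values in view, as were the marker and overlapping genes. Of the marker list, GPC3 was not analysed here. A listed gene that the rule names is not reported here. Alternatives tried were other tools (DESeq2 1.42.0, and limma 3.58.1 with voom), other scalings (DESeq2 size factors, upper quartile, or library size alone), other filters (none, or a CPM of at least 1 in 3 libraries), a block on the replicate number, and each library left out.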

Additional observations from a re-analysis of the deposited data

How the results depend on the processing

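Across 14 alternatives, ATXN7L3 and SMAD7 stayed lower in every setting run; SMAD3 and SMURF2 kept their calls in 9 each, as given above. The count of SMAD and SMURF genes called higher was 0 with DESeq2 and 0 to 1 on leaving out a library, and the count called lower was 1 with library size alone and 1 to 2 on leaving out a library. Over all tested genes, DESeq2 called 1344 higher and 1510 lower, against 2182 and 2150 in edgeR. Library size alone called 2955 higher and 1604 lower and moved the median log2 fold change from 0.01 to 0.05. SMAD2, SMAD5 and SMURF1, which did not pass the test, changed sign. With a library left out, SMAD2 ran from -0.0027 to 0.069, SMAD5 from -0.096 to 0.051 and SMURF1 from -0.031 to 0.0060. SMAD5 was at 0.038 and SMURF1 at 0.032 with library size alone, and SMAD5 at 0.0013 with limma voom. The cause was not tested.

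The principal transcript length, added after the data were seen, gave per-length shcontrol levels of 35.7 for SMAD3, 32.1 for SMURF1, 21.7 for SMAD6, 7.66 for SMAD7, 6.25 for SMURF2, 5.08 for SMAD5, 4.75 for SMAD1, 3.34 for SMAD4 and 1.01 for SMAD2, because the lengths differ. With library size alone the shATXN7L3 levels were 2.30 for SMAD4 and 28.7 for SMURF1. Within 1000 kb of SMAD7, 4 genes were called higher, where a wider window holds more genes.

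The replicate numbers did not pair the libraries: deviations from the group means correlated at -0.12, 0.0067 and 0.097 for numbers 1, 2 and 3 over 12275 genes. With the number as a replicate block, SMAD7 was at -0.32 (edgeR adjusted p = 0.000331), 1 SMAD or SMURF gene was higher and 2 were lower, and 2188 and 2140 of all tested genes were. SMAD9, at 6 to 14 counts per library, is the gene that depth limits most; it was tested under 12 of the 14 alternatives, and not with the stricter filter or without shATXN7L3 replicate 3.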
